A study of Mus musculus with 15 samples.

Results

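The caveolae coat genes described here are *Cav1*, *Cav2*, *Cavin1*, *Cavin2*, *Cavin3* and *Ehd2*, 6 of the 55471 genes in the count table. They were chosen by their symbols, and each symbol matched 1 Ensembl identifier of the mouse annotation. RNA of the whole hippocampus was sequenced in 15 libraries, 3 for each of 5 groups, all from female mice aged 3 months. Batch 1 held wild-type (WT), APP-TKI (AppNL-G-F/NL-G-F) and double mutant (DM, AppNL-G-F/NL-G-F with Apoe4+/wt) mice, and batch 2 held its own WT mice together with ApoE4 mice (ApoE4+/wt). In APP-TKI mice the mutations and a humanised amyloid-β stretch are built into the mouse *App* gene, which keeps its own promoter, and in ApoE4 and DM mice a single copy of human *APOE4* stands beside a mouse copy. The labels number the libraries of a group without saying whether a library is 1 animal. The paper, however, gives the group sizes of its sequencing comparison as numbers of mice. By that count each library is a separate mouse. The p-values measure the spread between libraries, which holds differences between mice and may in part be technical. Because whole tissue was sequenced, fewer cells of a type and less RNA per cell cannot be told apart.

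Caveolae are small flask-shaped pits of the plasma membrane, abundant in endothelial cells, smooth muscle, fibroblasts and fat cells. Caveolins are hairpin proteins inserted into the inner leaflet of the membrane, cavins are cytosolic coiled-coil proteins that assemble around them, and EHD2 is an ATPase at the neck of the pit that holds it at the surface. In brain capillaries caveolae are few, and their use for transport of cargo across the endothelium is kept low as part of the blood-brain barrier.

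All 6 genes passed the filter of more than 1 CPM, the count scaled to library size, in at least 3 libraries. Total counts were 32754717 to 44630808 per library, and the lowest and highest counts of a gene in a library were 267 and 550 for *Cav1*, 965 and 1446 for *Cav2*, 218 and 703 for *Cavin1*, 149 and 587 for *Cavin2*, 383 and 649 for *Cavin3*, and 152 and 310 for *Ehd2*. Counting error alone was therefore 8.19% of the level for *Cavin2* and 2.63% for *Cav2* at their extremes. Libraries stood apart in 2 ways. In batch 1, WT library 1, APP-TKI libraries 1 and 2 and DM library 1 had 2.35% to 2.58% of their counts in long noncoding genes. The other 5 had 1.90% to 2.06%. This noncoding share covers intergenic, antisense, sense intronic, sense overlapping, bidirectional promoter and macro long noncoding RNA genes, and no other noncoding class. In batch 2, WT library 3 and ApoE4 library 1 held 1658 and 1979 CPM of 8 choroid plexus markers summed, against 28.5 to 107 CPM in the other 13 libraries. *Apoe* is counted in 1 row for the human and mouse genes, and neither it nor *App* (1.06-fold and 0.965-fold in DM relative to WT mice) checks the genotype labels.

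The largest difference of the group was in *Cavin1*, at 1.58 times its WT level and 1.53 times its APP-TKI level in DM mice. Libraries did not overlap in either comparison, where 7.29% and 5.03% of all genes were higher without overlap. *Cavin1* did not pass the threshold of an adjusted p under 0.1 with the main test, and it did with 3 others. Those called 0.309% to 0.841% of all genes against WT and 0.111% to 0.328% against APP-TKI mice. Summed endothelial and smooth muscle markers were likewise higher in DM mice without overlap in either comparison. Fibroblast, ependymal and pericyte sums overlapped in at least 1. *Cav1*, *Cav2*, *Cavin2*, *Cavin3* and *Ehd2* also had their highest mean of batch 1 in DM mice, with overlapping libraries. *Cavin2* was at 1.24 times its WT level in DM mice, and *Cavin2* and *Ehd2* differed little between DM and APP-TKI mice. In ApoE4 mice 5 of the 6 genes had a lower mean than in WT mice of batch 2, none past the threshold, and for *Cav2*, *Cavin1* and *Ehd2* the sign turned when single libraries were left out.

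**Figure D1:**
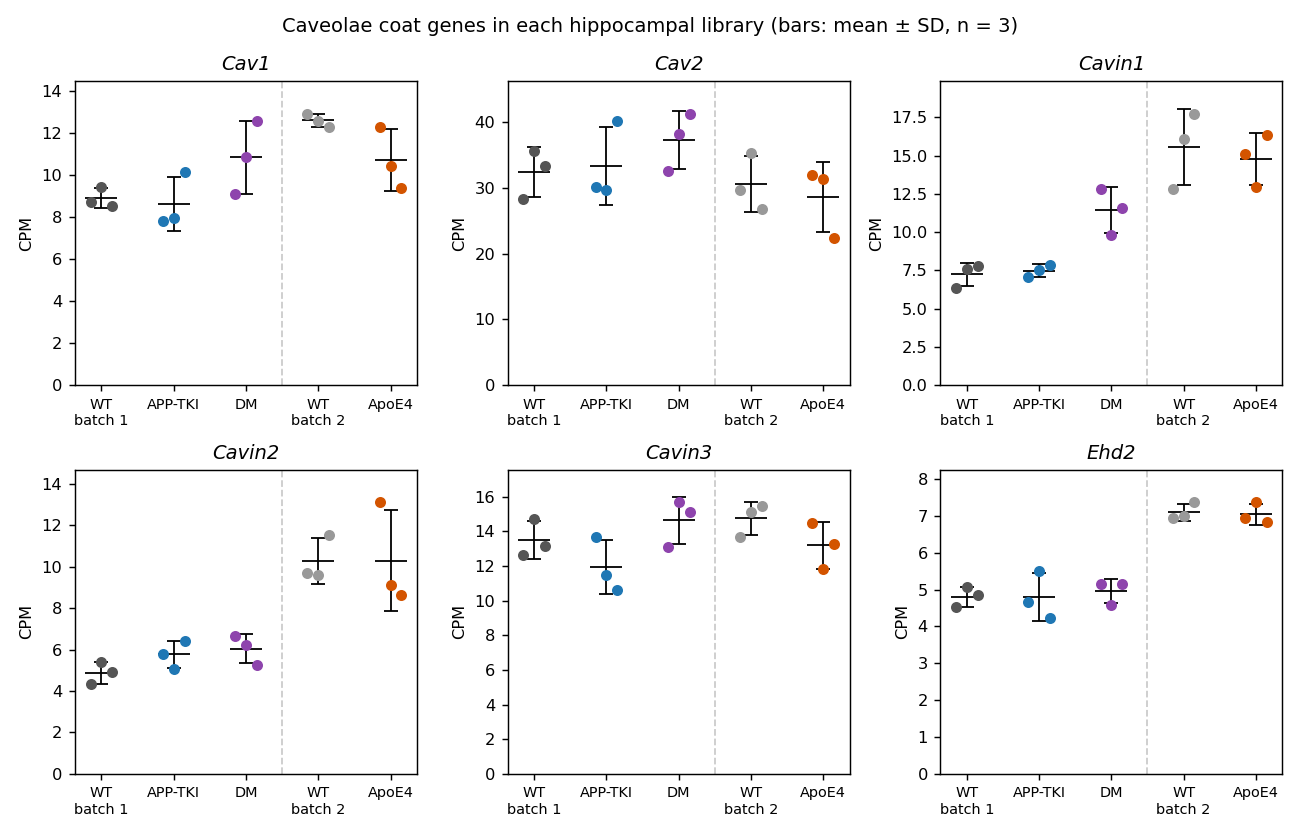
CPM (vertical axis, from 0) of each caveolae coat gene in each library, by group; points are libraries, bars the mean ± SD of 3, and the dashed line parts batch 1 from batch 2. *Cavin1* lay at 9.84 to 12.8 CPM in DM mice, above all WT and APP-TKI libraries of batch 1, and *Cavin1*, *Cavin2* and *Ehd2* lay higher in both groups of batch 2 than in batch 1.

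*Cav1* encodes caveolin-1, without which non-muscle cells form no caveolae, and *Cav2* encodes its partner caveolin-2. They are neighbours on chromosome 6 of GRCm38, on the same strand: *Cav2* (ENSMUSG00000000058) lies at chr6:17281185-17289115 and *Cav1* (ENSMUSG00000007655) at chr6:17306335-17341452, 17.22 kb further on. The 250 bases before each annotated gene start are shown because the levels of this pair moved together across libraries. They are RefSeq promoter sequence of GRCm38.p6, plus strand, at chr6:17280935-17281184 and chr6:17306085-17306334, with GC boxes (GGGCGG, on either strand) and CCAAT boxes (CCAAT, on either strand) in capitals.
Cav2: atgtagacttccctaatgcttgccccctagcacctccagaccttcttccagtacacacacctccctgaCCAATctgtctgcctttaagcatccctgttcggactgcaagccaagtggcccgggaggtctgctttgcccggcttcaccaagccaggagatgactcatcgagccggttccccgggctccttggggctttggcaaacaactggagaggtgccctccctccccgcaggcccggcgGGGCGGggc
Cav1: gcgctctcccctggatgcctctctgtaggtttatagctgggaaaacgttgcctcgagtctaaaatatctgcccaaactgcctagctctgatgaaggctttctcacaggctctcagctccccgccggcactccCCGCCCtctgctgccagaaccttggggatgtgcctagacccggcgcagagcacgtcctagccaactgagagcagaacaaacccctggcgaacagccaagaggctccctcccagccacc
Both windows hold a GC box, and the window of *Cav2* alone of the pair holds a CCAAT box. Only the first promoter entry of each gene was counted. *Cav1* has another entry, at chr6:17307390-17307639, with 0 GC boxes and 0 CCAAT boxes. Of the 5 genes with a promoter entry, 4 hold a GC box (*Cav1*, *Cav2*, *Cavin1*, *Ehd2*), 4 a CCAAT box (*Cav2*, *Cavin1*, *Cavin2*, *Ehd2*) and 0 the letters AGGAAG, a form of the site bound by ETS factors, on either strand. Shorter or other forms of that site were not counted. In the same 250-base window of 27025 mouse promoters these motifs occur in 32.9%, 34.5% and 29.2%, and no motif is contained in another. A match is a description of these letters and not evidence of binding.

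*Cav1* was at 8.71, 9.43 and 8.53 CPM in the WT libraries of batch 1, at 7.82, 7.94 and 10.1 CPM in the APP-TKI libraries and at 9.07, 10.9 and 12.5 CPM in the DM libraries. DM libraries 2 and 3 were above all others of the batch, and DM library 1 lay within the WT range. The mean was 10.8 ± 1.74 CPM (SD, n = 3) in DM mice against 8.89 ± 0.479 CPM (SD, n = 3) in WT mice. On the log2 scale *Cav1* differed by 0.28 between DM and WT mice (SE 0.14, adjusted p = 1.00 by edgeR's quasi-likelihood test). Between DM and APP-TKI mice the log2 difference was 0.33 (SE 0.14), with an unadjusted p of 0.0373 and an adjusted p of 0.987 by the same edgeR test. In batch 2 its level was 12.9, 12.6 and 12.3 CPM in WT and 12.3, 10.4 and 9.37 CPM in ApoE4 libraries, so that 2 of the 3 ApoE4 libraries were below all WT libraries and ApoE4 library 1, one of the pair rich in choroid plexus markers, was within their range. The log2 difference was -0.24, with a 95% interval of -0.49 to 0.02.

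*Cav2* was at 28.3, 35.7 and 33.4 CPM in WT libraries of batch 1, 30.1, 29.7 and 40.2 CPM in APP-TKI and 32.5, 38.1 and 41.3 CPM in DM libraries. All 3 groups overlapped, and APP-TKI library 3 was second only to DM library 3, after being the highest WT or APP-TKI library for *Cav1* as well. The log2 differences were 0.20 (SE 0.13) for DM against WT and 0.16 (SE 0.13) for DM against APP-TKI mice. In batch 2 *Cav2* was at 29.7, 35.3 and 26.8 CPM in WT and 32.0, 31.4 and 22.4 CPM in ApoE4 libraries, groups that overlapped, with a log2 difference of -0.10 (SE 0.15).

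The cavins are spread over 3 chromosomes: *Cavin1* (ENSMUSG00000004044) lies at chr11:100956733-100970887 on the minus strand, *Cavin2* (ENSMUSG00000045954) at chr1:51289126-51302960 on the plus strand and *Cavin3* (ENSMUSG00000037060) at chr7:105480083-105482300 on the minus strand. *Cavin1* encodes the cavin that the coat cannot form without, and a 30-base stretch of its RefSeq promoter entry (GRCm38.p6, chr11:100970663-100970692, minus strand) is shown for its CCAAT box, in capitals. The stretch lies 195 to 224 bases inside the gene as GENCODE annotates it, since the RefSeq start is further downstream, so the *Cavin1* window counted above is not upstream of the GENCODE start.
Cavin1: gggtggggccagCCAATggccgacgggact

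*Cavin1* was at 6.35, 7.55 and 7.78 CPM in the WT libraries of batch 1, at 7.03, 7.50 and 7.86 CPM in the APP-TKI libraries and at 12.8, 9.84 and 11.6 CPM in the DM libraries. The lowest DM library was above the highest WT and the highest APP-TKI library, whereas WT and APP-TKI libraries were interspersed. The means were 7.23 ± 0.768 CPM (SD, n = 3) in WT, 7.47 ± 0.415 CPM (SD, n = 3) in APP-TKI and 11.4 ± 1.505 CPM (SD, n = 3) in DM mice. Of all 16171 genes tested, 7.29% were higher without overlap in DM than in WT libraries, and 5.03% were higher without overlap in DM than in APP-TKI libraries; 3.14% and 2.90% were lower without overlap. *Cavin1* was the single caveolae coat gene with this separation in either comparison.

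The log2 difference of *Cavin1* between DM and WT mice was 0.66 (SE 0.12), with a 95% interval of 0.39 to 0.93. Its unadjusted p of 0.000207 ranked 16 of 16171 genes, and its adjusted p was 0.209 by edgeR's quasi-likelihood test. With DESeq2 the adjusted p was 0.00644, with edgeR's likelihood ratio test on robust dispersions, the kind of test named in the methods of the study, 0.0011, and with the likelihood ratio test on robust tagwise dispersions 0.00244. These tests called 0.309%, 0.841% and 0.587% of all genes, against 0.0124% for the quasi-likelihood test. Between DM and APP-TKI mice the log2 difference was 0.61 (SE 0.12), with an adjusted p of 0.602 by edgeR's quasi-likelihood test, 0.0354 with DESeq2, 0.0070 with the robust likelihood ratio test and 0.0189 with the other likelihood ratio test. The paper, from these same libraries, lists *Cavin1* among its genes that differed between APP-TKI and DM mice at a false discovery rate under 0.1. With no filter on low counts the quasi-likelihood test of edgeR gave *Cavin1* an adjusted p of 0.00144 against WT and 0.00552 against APP-TKI mice, and it then called 0.514% and 0.313% of 34813 genes. Without the 4 libraries of batch 1 with a high noncoding share, the log2 difference was 0.48 against WT and 0.45 against APP-TKI mice (adjusted p = 0.113 and 0.268 by edgeR's quasi-likelihood test), with 1 APP-TKI library left, assumed to vary as the others do.

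In batch 2 *Cavin1* was at 12.8, 16.1 and 17.7 CPM in WT and at 15.1, 13.0 and 16.3 CPM in ApoE4 libraries, and the ApoE4 libraries lay inside the WT range. The log2 difference was -0.07, with a 95% interval of -0.39 to 0.25. The WT mean was 2.15 times higher in batch 2 than in batch 1, a larger ratio than the 1.58 between DM and WT mice within batch 1, and batch cannot be told apart from any other difference between these WT groups.

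*Cavin2*, which encodes a cavin that bends membranes, was at 4.34, 5.40 and 4.93 CPM in WT, 5.80, 5.07 and 6.42 CPM in APP-TKI and 6.64, 6.23 and 5.27 CPM in DM libraries. Libraries overlapped between each pair of groups, and the APP-TKI and DM ranges were nearly the same. The log2 difference from WT was 0.31 (SE 0.14) in DM and 0.24 (SE 0.15) in APP-TKI mice. Between DM and APP-TKI mice it was 0.07, with a 95% interval of -0.24 to 0.38. In batch 2 the levels were 9.71, 9.60 and 11.6 CPM in WT and 13.1, 9.14 and 8.65 CPM in ApoE4 libraries. The highest of these was ApoE4 library 1, rich in choroid plexus markers; the log2 difference was 0.00 with all libraries and -0.12 without it and WT library 3.

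*Cavin3*, whose product joins the coat through cavin-1, was at 12.6, 14.7 and 13.2 CPM in WT, 13.7, 11.5 and 10.6 CPM in APP-TKI and 13.1, 15.7 and 15.2 CPM in DM libraries. APP-TKI libraries 2 and 3 were below all WT and DM libraries, and library 1 lay among them. The log2 difference was 0.12 (SE 0.11) for DM against WT, -0.18 (SE 0.12) for APP-TKI against WT and 0.29 (SE 0.12) for DM against APP-TKI mice, the last with an unadjusted p of 0.0257 and an adjusted p of 0.987 by edgeR's quasi-likelihood test. Without the 4 libraries of batch 1 with a high noncoding share it was 0.54 with an adjusted p of 0.0776 by that edgeR test, where APP-TKI mice were represented by library 3 alone, the lowest of the batch, and 1.01% of all genes were called. In batch 2 *Cavin3* was at 13.7, 15.1 and 15.5 CPM in WT and 14.5, 11.8 and 13.2 CPM in ApoE4 libraries, with a log2 difference of -0.16 (SE 0.10).

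*Ehd2* (ENSMUSG00000074364) lies at chr7:15946958-15967567 on the minus strand, 3.73 Mb before *Apoe* on the same chromosome. It had the smallest log2 differences of the 6 genes in all 3 comparisons of batch 1, and it was at 4.52, 5.06 and 4.85 CPM in WT, 4.66, 5.51 and 4.22 CPM in APP-TKI and 5.16, 4.57 and 5.16 CPM in DM libraries. The groups overlapped fully, and the log2 difference of DM from WT mice was 0.05, with a 95% interval of -0.25 to 0.35. In batch 2 it was at 6.94, 6.99 and 7.36 CPM in WT and 6.93, 7.37 and 6.82 CPM in ApoE4 libraries, with a log2 difference of -0.01 and an interval of -0.23 to 0.21.

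For DM against WT mice all 6 log2 differences were above 0, as were 54.9% of all genes, with a median of 0.24 beside 0.01 over all genes. Without DM library 3 that median was 0.14. With edgeR's quasi-likelihood test 0 of 6 passed, with 1 (*Cavin1*) at an unadjusted p under 0.05, which 4.55% of all genes reached. DESeq2 and both likelihood ratio tests each called *Cavin1*.

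For DM against APP-TKI mice, a comparison that shares the DM libraries, all 6 were again above 0, as were 50.4% of all genes, and the median was 0.23 beside 0.00. The quasi-likelihood test of edgeR called 0 of 6 and 0.00% of all genes, with 3 (*Cav1*, *Cavin1*, *Cavin3*) at an unadjusted p under 0.05, which 3.78% of all genes reached. The 3 other tests each called *Cavin1*, among 0.111% of all genes with DESeq2, 0.328% with the robust likelihood ratio test and 0.179% with the other.

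APP-TKI against WT mice, which shares libraries with both, gave 3 of 6 log2 differences above 0, with 55.5% of all genes, and a median of 0.02 beside 0.01. By edgeR's quasi-likelihood test 0 of 6 passed, where 0.00618% of all genes did, and 0 reached an unadjusted p under 0.05, where 3.56% of all genes did. DESeq2 and the likelihood ratio tests called 0 as well. No caveolae coat gene was separated between the libraries of these groups, where 4.71% of all genes were higher and 3.56% lower without overlap.

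In ApoE4 against WT mice of batch 2, 1 of 6 log2 differences was above 0 (*Cavin2*), with 45.9% of all genes, and the median was -0.09 beside -0.01. The median ran from -0.20, without ApoE4 library 1, to -0.046, without WT library 2, when single libraries were left out. Here 0 of 6 passed with edgeR's quasi-likelihood test (0.00% of all genes), 0 with DESeq2 or either likelihood ratio test, and 0 reached an unadjusted p under 0.05, where 5.99% of all genes did. Libraries of both groups overlapped for all 6, where 5.39% of all genes were higher and 6.79% lower without overlap. Of the markers of other cells, 0 of 7 smooth muscle (median -0.34), 0 of 10 fibroblast (-0.38), 1 of 10 pericyte (-0.14) and 4 of 20 endothelial markers (-0.11) had a log2 difference above 0, and 8 of 8 ependymal (0.56) and 6 of 7 choroid plexus markers (0.25) did, with 0 called by the quasi-likelihood test. By that test 2 smooth muscle, 2 pericyte and 2 endothelial markers, all lower, reached an unadjusted p under 0.05. Of the fibroblast, ependymal and choroid plexus markers 0 did. The smooth muscle sum was 57.9 to 73.1 CPM in WT and 50.5 to 51.0 CPM in ApoE4 libraries, without overlap, and the fibroblast and ependymal sums overlapped. DESeq2 and both likelihood ratio tests each called the same 1 smooth muscle marker, lower in ApoE4 mice, and 0 of the other markers given here. The part of these cells in the levels of the caveolae coat genes was not tested.

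Whether *APOE4* acts differently on these genes in mice with and without mutant *App* was tested across the batches. The value tested was the DM minus APP-TKI difference minus the ApoE4 minus WT difference. A shift shared equally by the groups of a batch cancels. The effect with mutant *App* came from batch 1 alone and the effect without it from batch 2 alone. A difference of effects therefore cannot be told apart from a batch that shifts its groups unequally. The difference of effects on the log2 scale was 0.68 for *Cavin1* (SE 0.19, unadjusted p = 0.00245, adjusted p = 0.607 by edgeR's quasi-likelihood test), and 0.56 for *Cav1* (SE 0.19) and 0.46 for *Cavin3* (SE 0.16) at unadjusted p values of 0.00877 and 0.0106 by that test across all genes. It was 0.26 for *Cav2*, 0.07 for *Cavin2* and 0.06 for *Ehd2*, each with an interval that included 0. The median was 0.36 beside 0.01 over all genes, and all 6 were above 0, as were 52.6% of all genes. In the same comparison 20 of 20 endothelial (median 0.73, 13 at an unadjusted p under 0.05), 7 of 7 smooth muscle (median 0.64, 4) and 10 of 10 fibroblast markers (median 0.78, 2) had a log2 difference above 0, as did 7 of 10 pericyte (median 0.18), 5 of 8 ependymal (median 0.08) and 1 of 7 choroid plexus markers (median -0.61). Of these markers 0 passed with edgeR's quasi-likelihood test. DESeq2 called 3 endothelial and 3 smooth muscle markers, and the robust likelihood ratio test 6 endothelial, 3 smooth muscle and 2 fibroblast markers, all higher. The likelihood ratio test on tagwise dispersions called 2 endothelial and 2 smooth muscle markers. The part of these cells in the difference of effects was not tested. With edgeR's quasi-likelihood test 0 of 6 passed (0.00% of all genes), and the 3 named reached an unadjusted p under 0.05, as 6.85% of all genes did. DESeq2 called 0 and the likelihood ratio test on tagwise dispersions 0, and the robust likelihood ratio test called *Cavin1* (adjusted p = 0.0595) among 0.748% of all genes. With no filter the quasi-likelihood test of edgeR called *Cavin1* as well (adjusted p = 0.0283), among 1.08% of genes.

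**Figure D2:**
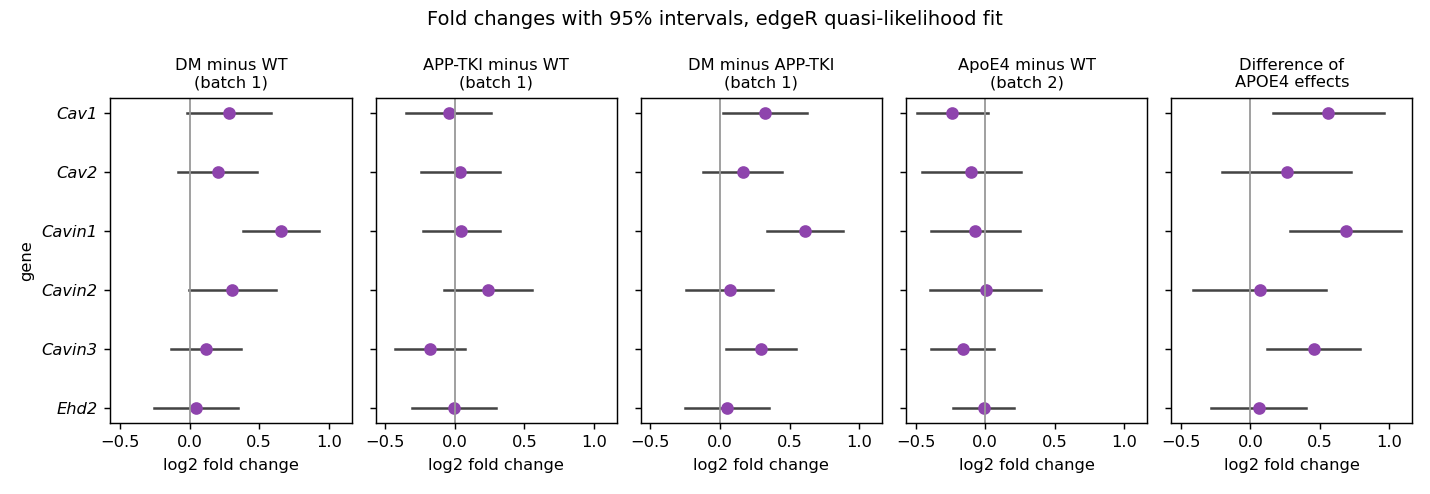
Log2 fold change (horizontal axis) of each gene in the 4 comparisons within a batch and in the difference of *APOE4* effects with and without mutant *App*; dots are estimates of edgeR's quasi-likelihood fit and lines 95% intervals. The interval of *Cavin1* lies above 0 in DM against WT mice (0.39 to 0.93) and includes 0 in ApoE4 against WT mice (-0.39 to 0.25).

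Markers of several vascular and ventricular cell types were also higher in DM mice. The summed level of 20 endothelial markers was 110 to 123 CPM in WT, 99.0 to 120 CPM in APP-TKI and 139 to 182 CPM in DM libraries, 10 smooth muscle markers were at 29.4 to 35.6, 33.4 to 35.8 and 41.1 to 49.3 CPM, 10 fibroblast markers at 68.2 to 81.6, 57.4 to 104 and 99.0 to 112 CPM, and 9 ependymal markers at 11.3 to 15.9, 8.26 to 25.1 and 24.9 to 34.2 CPM. For DM against WT mice 20 of 20 endothelial, 7 of 7 tested smooth muscle, 10 of 10 fibroblast and 8 of 8 tested ependymal markers had a log2 difference above 0, with medians of 0.43, 0.47, 0.68 and 1.10, and 8 of 10 pericyte markers with a median of 0.14. Of all genes 54.9% were above 0. With edgeR's quasi-likelihood test 0 of these markers passed, with 11 endothelial, 5 smooth muscle, 6 fibroblast, 7 ependymal and 2 pericyte markers at an unadjusted p under 0.05, which 4.55% of all genes reached. DESeq2 called 1 endothelial, 1 smooth muscle, 4 fibroblast and 1 ependymal marker, and the robust likelihood ratio test 3, 3, 5 and 5. The likelihood ratio test on tagwise dispersions called 2, 3, 5 and 2. Of all genes these tests called 0.309%, 0.841% and 0.587%. Of the other lists, the median was 0.32 for blood (3 of 4 above 0), 0.13 for oligodendrocyte (8 of 8), 0.05 for astrocyte (6 of 8), 0.02 for microglia (4 of 8), -0.01 for neuron (3 of 8), -0.07 for hippocampal neuron (3 of 8) and -0.06 for choroid plexus markers (3 of 7). For DM against APP-TKI mice 20 of 20 endothelial, 7 of 7 smooth muscle, 9 of 10 fibroblast and 8 of 8 ependymal markers were above 0, with medians of 0.58, 0.26, 0.51 and 0.58. Pericyte markers had 6 of 10 above 0, with a median of 0.07, beside 50.4% of all genes. By edgeR's quasi-likelihood test 0 of these passed. At an unadjusted p under 0.05 were 14 endothelial, 3 smooth muscle, 5 fibroblast and 2 ependymal markers, beside 3.78% of all genes. DESeq2 called 3 endothelial and 1 smooth muscle marker. The robust likelihood ratio test called 4 and 3, with 1 fibroblast marker, and the tagwise one 5 and 2. The ependymal marker *Mia* was at 0 counts in 9 libraries, and the other defining markers of these lists were detected in every library, some at few counts. The lowest count of a tested ependymal marker ran from 3 (*Tmem212*) to 122 (*Foxj1*). The part of these cell types in the level of *Cavin1* was not tested.

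Set against the endothelial sum, the caveolae coat genes did not keep a single proportion. *Cavin1* was 5.77% to 6.33% of the endothelial sum in WT, 6.28% to 7.11% in APP-TKI and 6.38% to 8.28% in DM libraries, so the DM range overlapped that of APP-TKI mice and began just above that of WT mice. *Ehd2* was 3.94% to 4.13% of it in WT and 2.83% to 3.33% in DM libraries, and the 6 genes summed were 58.9% to 63.6% in WT, 56.2% to 69.8% in APP-TKI and 50.04% to 61.5% in DM libraries. In batch 2 the endothelial sum was 237 to 286 CPM in WT and 208 to 269 CPM in ApoE4 libraries, and the 6 genes summed were 29.95% to 38.5% and 34.9% to 36.9% of it. These are shares of CPM and carry no test.

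**Figure D3:**
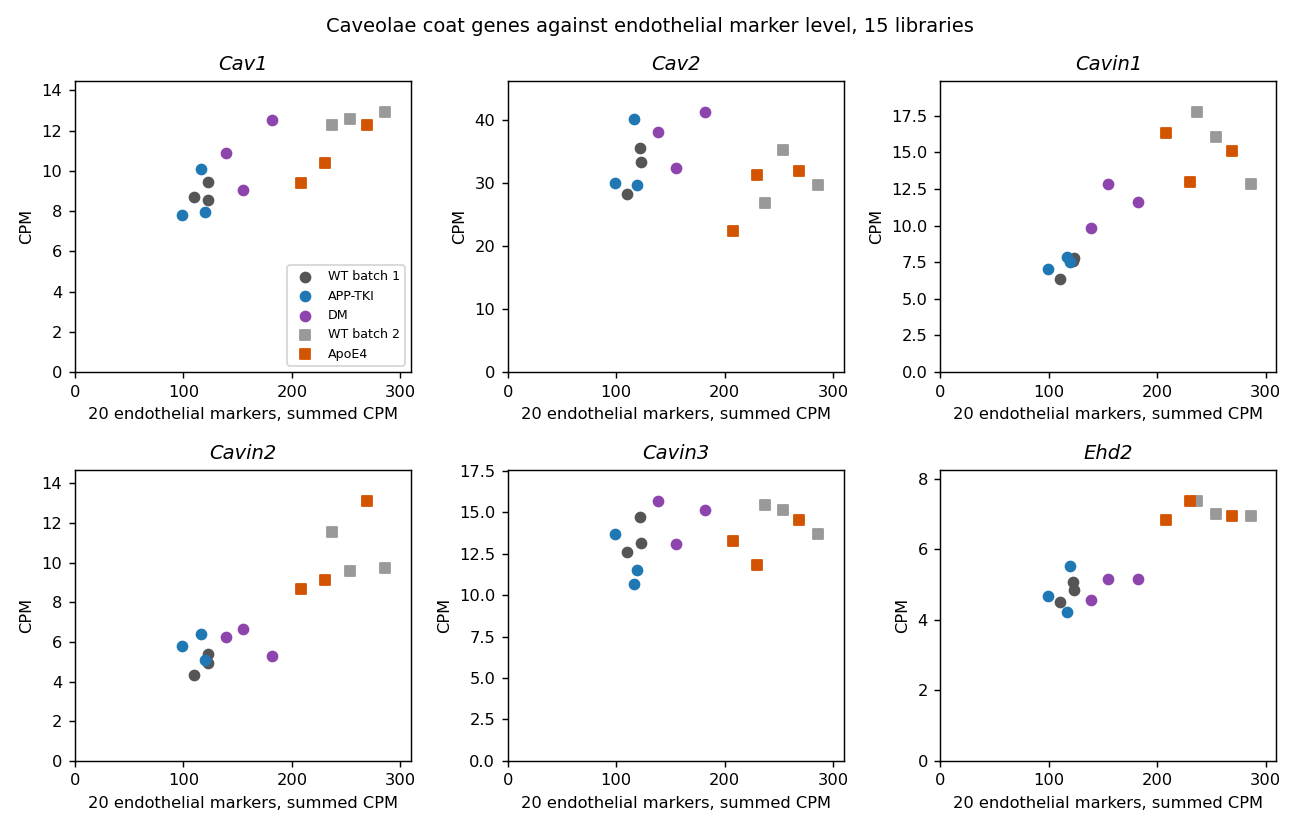
CPM of each caveolae coat gene (vertical axis) against the summed CPM of 20 endothelial markers (horizontal axis) in 15 libraries; circles are batch 1, squares batch 2 and colours the groups. In batch 1 the DM libraries are the highest on both axes for *Cavin1*, and *Cav2* and *Cavin3* overlap between the WT libraries of the batches although the endothelial sum is 237 CPM or more in the WT libraries of batch 2 and 123 CPM or less in those of batch 1.

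The WT groups of the batches differed unequally. The ratio of the WT mean of batch 2 to that of batch 1 was 2.15 for *Cavin1*, 2.10 for *Cavin2*, 1.48 for *Ehd2*, 1.42 for *Cav1*, 1.09 for *Cavin3* and 0.944 for *Cav2*. For *Cavin1*, *Cavin2*, *Ehd2* and *Cav1* the WT libraries of the batches did not overlap, and those of *Cav2* and *Cavin3* did. Of all genes, 13.2% were higher and 17.7% lower without overlap in WT mice of batch 2 than in those of batch 1. These ratios compare batches, not genotypes.

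Compared per kilobase of exon, *Cav2* and *Cavin3* were the most abundant of the genes and *Ehd2* the least. In WT mice of batch 1 the levels were 9.72 ± 1.14 CPM per kilobase (SD, n = 3) for *Cav2*, 8.12 ± 0.664 for *Cavin3*, 2.58 ± 0.139 for *Cav1*, 2.02 ± 0.214 for *Cavin1*, 1.60 ± 0.173 for *Cavin2* and 0.939 ± 0.0532 for *Ehd2*. The ranges of *Cav2* and *Cavin3* overlapped, those of *Cavin1* and *Cavin2* met end to end at 1.77, and the others were apart. *Cav2* was first in 13 of 15 libraries and *Cavin3* in the other 2, and *Ehd2* was last in all 15.

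The middle of this order differed between groups. *Cav1* was above *Cavin1* per kilobase in all WT and APP-TKI libraries of batch 1, with a *Cavin1* to *Cav1* ratio of 0.700 to 0.907. The ratio was 1.36, 0.870 and 0.888 in the DM libraries, so that DM library 1, with a high noncoding share, was the one in which *Cavin1* was the higher. It was 0.954 to 1.39 in WT and 1.18 to 1.67 in ApoE4 libraries of batch 2. In WT mice of batch 2 *Cavin1* (4.33 ± 0.696 CPM per kilobase, SD, n = 3), *Cav1* (3.66 ± 0.0919) and *Cavin2* (3.37 ± 0.358) overlapped in their ranges.

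**Figure D4:**
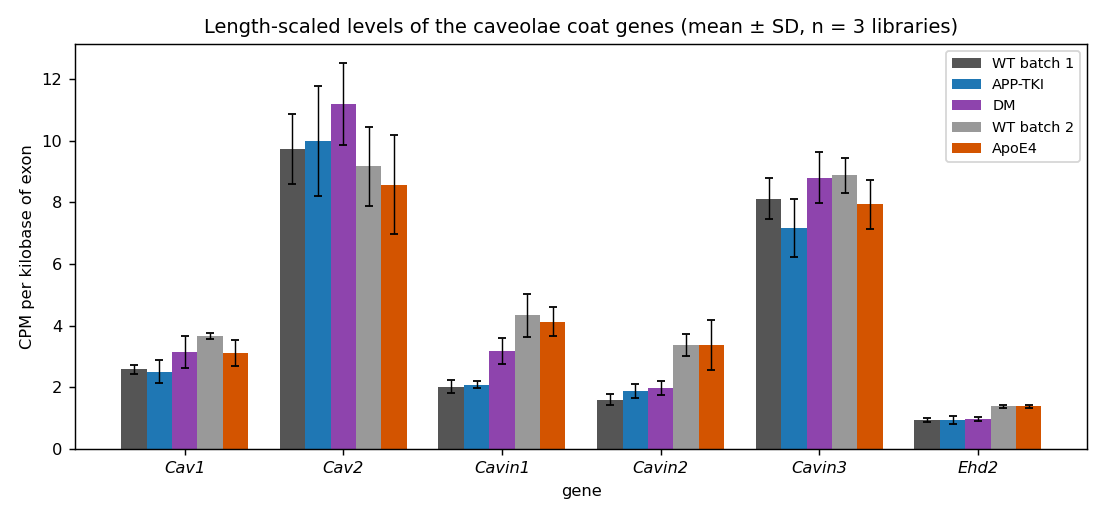
Level per kilobase of exon (vertical axis, CPM per kilobase, from 0) of each gene in each group; bars are the mean and lines the SD of 3 libraries. *Cav2* and *Cavin3* stand at 7.18 or more in all 5 groups, *Ehd2* at 1.39 or less, and *Cavin1* and *Cavin2* are higher in both groups of batch 2.

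Across the 15 libraries, with log2 CPM (offset 0.1) centred within each batch, *Cav1* and *Cav2* varied together: Pearson's r was 0.783 (permutation p = 0.00047, adjusted over 15 pairs 0.00705) and Spearman's rho 0.793 (permutation p = 0.00061, adjusted 0.00915). Without the 2 libraries farthest from the median of *Cav1*, r was 0.667, and it was 0.878 in the 9 libraries of batch 1 and 0.652 in the 6 of batch 2. Genotype differences were left in these values. Of the other 14 pairs none passed after adjustment, the closest by r being *Cav1* and *Cavin3* at 0.510, *Cavin1* and *Cavin2* at 0.463 and *Cav1* and *Cavin1* at 0.454. *Cavin1* and *Cav1* were at 0.606 in batch 1 and -0.04 in batch 2, and the r of *Ehd2* with the others was -0.102 to 0.299.

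The genes whose profile was most like that of the caveolae coat genes were sought among 16165 other genes by Pearson's r on the same centred values, as a description. The mean of the 6 was most like *Rpl37a*, a ribosomal protein gene (r = 0.926), *Ndufc1*, a subunit of respiratory complex I (0.919), *Fcgrt*, the neonatal Fc receptor (0.908), *Snapc5* (0.906) and *1810037I17Rik* (0.899). *Cav1* was most like the dynactin subunit gene *Dctn3* (r = 0.939), *Cav2* like the kinase gene *Cdkl4* (0.935), *Cavin1* like *Anxa2*, which encodes a membrane-binding annexin (0.895), *Cavin2* like the transporter gene *Slc16a9* (0.872), *Cavin3* like the decapping enzyme gene *Dcps* (0.892), and *Ehd2* like the antisense gene *Gm42596* (0.831). None of the 11 is in the marker, partner or clathrin lists. Values this high were the highest of 16165 over 15 libraries, and these libraries also share differences in depth and RNA composition.

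Genes whose products work with caveolae had differences of both signs. Of 16 partners, 15 passed the filter, *Cav3* being the exception at 6 to 25 counts. For DM against WT mice 4 had a log2 difference above 0 and 11 below, with a median of -0.04. *Nos3*, the endothelial nitric oxide synthase that caveolin-1 binds, was at 1.60, 2.28 and 2.38 CPM in WT and 3.14, 2.47 and 3.87 CPM in DM libraries, which did not overlap, with a log2 difference of 0.59 (SE 0.23). *Pacsin2*, a membrane-bending protein of caveolae, differed by 0.18 (SE 0.07) from WT in DM and by 0.19 (SE 0.07) in APP-TKI mice. Both had an unadjusted p under 0.05 (0.0237 for *Nos3* and 0.0358 for *Pacsin2*) and failed adjustment with edgeR's quasi-likelihood test, at 0.943 and 1.00.

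Of the 15 partners 0 passed in any comparison with that test. At an unadjusted p under 0.05 there were 2 for DM against WT, 1 for APP-TKI against WT, 0 for DM against APP-TKI, 2 for ApoE4 against WT mice (*Mfsd2a* and *Dnm2*) and 2 for the difference of effects (*Mfsd2a* and *Src*), of 15 each. Over all genes the shares were 4.55%, 3.56%, 3.78%, 5.99% and 6.85%. *Dnm2*, the dynamin that cuts pits from the membrane, had a log2 difference of 0.15 between ApoE4 and WT mice (SE 0.06), and *Src*, a kinase gene named here after its value was seen, one of -0.14 in the difference of effects (SE 0.07). DESeq2 and the likelihood ratio test on tagwise dispersions called 0, and the robust likelihood ratio test called *Mfsd2a* in ApoE4 against WT mice and, lower, in the difference of effects, among 0.773% and 0.748% of all genes. *Mfsd2a* encodes the lipid transporter of brain endothelium that holds back caveolar transport, and it was at 15.8, 16.1 and 21.9 CPM in WT and 23.0, 26.1 and 21.6 CPM in ApoE4 libraries. Its log2 difference was 0.39 (SE 0.14), with 1 ApoE4 library just below the highest WT library. In that comparison 5 of the 6 caveolae coat genes had the opposite sign, and 45.9% of all genes were above 0. Of the 6, 0 reached an unadjusted p under 0.05 by edgeR's quasi-likelihood test, and a link to *Mfsd2a* was not tested.

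The clathrin coat, the other main coat of endocytic pits and present in all cells, served as a comparison. All 16 of its genes passed the filter, with medians of the log2 difference of -0.01 for DM against WT, 0.01 for APP-TKI against WT, -0.00 for DM against APP-TKI and -0.02 for ApoE4 against WT mice. Within batches 0 of 16 passed with edgeR's quasi-likelihood test, DESeq2 or either likelihood ratio test, and 0 reached an unadjusted p under 0.05. In the difference of effects 1 did (*Itsn1*, an endocytic scaffold named after its value was seen, log2 difference -0.20, SE 0.07). Its summed level was 3456 to 3743 CPM across all groups of both batches, and that of the 6 caveolae coat genes was 64.8 to 95.6 CPM.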

How the data were processed

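Whole hippocampal RNA was measured in 15 poly(A)-selected, stranded libraries. The deposited table holds raw counts. The authors trimmed reads with Trimmomatic 0.39, aligned them with STAR 2.7.1a to the mouse genome plus human *APOE*, and assigned reads to genes with HTSeq 0.11.2, per the methods and the submitters' notes. Whether HTSeq counted by strand is not stated in the sources used here. Opposite-strand genes overlap *Cav1* and *Cav2* (*Gm15581*, 0 to 5 counts), *Cavin2* (*9330175M20Rik*, 4 to 14) and *Cavin3* (*Gm45667*, 18 to 71), so a few reads of these are uncertain.

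Symbols, exons and positions came from GENCODE M21 on GRCm38, an earlier release than the authors' on the same build (55144 of 55471 identifiers matched). Genes with over 1 CPM in at least 3 libraries were kept (16171). Upper quartile scaling preceded the quasi-likelihood test of edgeR 4.0.16 in R 4.3.3. Each batch was fitted alone (9 and 6 libraries), and all 15 libraries together for the difference of effects. P-values were adjusted by Benjamini-Hochberg over all tested genes, with calls under 0.1. CPM use the same scaling. Correlations were tested with 100000 permutations over the 15 libraries.

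The genes, the comparison lists and the tests were chosen with earlier results of these data known. Named were all 6 genes; of the partner and clathrin lists, those called or up to 4 with the smallest p under 0.05 per comparison within a batch; the 5 genes most like the mean and the top one for each gene; and *Apoe* and *App*. Alternatives were DESeq2 1.42.0, edgeR's likelihood ratio tests, TMM scaling, robust quasi-likelihood dispersions, other filters, other library sets, a threshold of 0.05, the replicate block and each library left out. Only the main fit, upper quartile scaling with edgeR's quasi-likelihood test, was also run on simulated counts. Same-numbered DM and WT libraries deviated together (r of 0.538, 0.265 and 0.377), a pairing that comes from the counts and not from the labels; in every other comparison at least 1 same-numbered pair was below 0.1.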

Additional observations from a re-analysis of the deposited data

How the results depend on the processing

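Of 30 log2 differences (6 genes in 5 comparisons), 16 kept their sign under all alternatives run. The sign of *Cavin1* held in DM against WT, in DM against APP-TKI and in the difference of effects, and its call did not: the count of genes called went from 0 to 1 (*Cavin1*) with DESeq2 in the first pair and, in all 3, with the robust likelihood ratio test and with no filter; the tagwise likelihood ratio test called it in the first pair. Leaving out single libraries gave *Cavin1* log2 differences of 0.57 to 0.76 and 0.52 to 0.71 in that pair, with no call. With the replicate block 0 genes of the 6 were called in any comparison (*Cavin1* in DM against WT: adjusted p = 0.142 by edgeR), 11 genes of all were called in DM against WT in place of 2, and *Cavin2* turned to -0.017 in ApoE4 against WT. Alternatives chosen after seeing the data were the sets without 4 or 2 libraries. Without the 4 libraries of high noncoding share, *Cavin3* was called in DM against APP-TKI (count 1), the median of the 6 was 0.10 in APP-TKI against WT, and the sign turned for *Ehd2* in DM against WT (-0.026), *Cav1* in APP-TKI against WT (0.17), *Cav2* (-0.017) and *Cavin2* (-0.16) in DM against APP-TKI, and *Cavin2* in the difference of effects (-0.16). Without the 2 libraries rich in choroid plexus markers, the median of the difference of effects was 0.47, and ApoE4 against WT gave 0.020 for *Cavin1*, -0.12 for *Cavin2* and 0.027 for *Ehd2*. Other signs turned for *Cav2* in APP-TKI against WT (-0.016) and *Cavin2* in ApoE4 against WT (-0.069) with the robust likelihood ratio test, *Ehd2* with no filter (0.012) and *Cavin2* with filterByExpr (-0.00098) in ApoE4 against WT. With single libraries left out, the median was 0.14 (without DM library 3) to 0.30 in DM against WT, 0.18 to 0.31 in DM against APP-TKI and -0.20 (without ApoE4 library 1) to -0.046 in ApoE4 against WT. The ranges that crossed 0 were, for APP-TKI against WT, -0.17 to 0.023 (*Cav1*), -0.12 to 0.12 (*Cav2*), -0.038 to 0.10 (*Cavin1*) and -0.11 to 0.082 (*Ehd2*); for DM against APP-TKI, -0.014 to 0.16 (*Cavin2*) and -0.035 to 0.16 (*Ehd2*); for the difference of effects, -0.046 to 0.28 (*Cavin2*) and -0.023 to 0.17 (*Ehd2*); and for ApoE4 against WT, -0.19 to 0.050 (*Cav2*), -0.19 to 0.034 (*Cavin1*), -0.21 to 0.11 (*Cavin2*) and -0.045 to 0.016 (*Ehd2*). The cause of these changes was not tested. Depth bears most on *Cavin2* and *Ehd2*, whose counting error reaches 8.19% and 8.11% in their lowest library; for *Cav2* it is at most 3.22%, below the spread between libraries of 11.7% to 18.8% of the mean.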
